A study of Mus musculus with 9 samples.

Results

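The epithelial-to-mesenchymal transition (EMT) transcription factors Snai1, Snai2, Twist1, Twist2, Zeb1 and Zeb2, the cadherins Cdh1, Cdh2 and Cdh11, and the intermediate filament gene Vim were followed from the periocular neural crest (pNC) to the embryonic cornea of the mouse. These 10 genes were taken by symbol, for their known roles, from the 19369 genes with a value in the series, and each was listed in all 9 samples. During EMT, epithelial cells loosen their junctions and become motile mesenchyme, as neural crest cells do when they leave the neural tube. The Snail, Twist and Zeb factors bind E-box DNA and can repress Cdh1, which encodes E-cadherin, the adhesion protein of epithelia. In many such cells E-cadherin gives way to N-cadherin, encoded by Cdh2, and the reverse change accompanies the return to an epithelium.

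RNA-Seq was performed on wild-type C57BL/6 embryos without treatment, with 3 samples each of E10.5 pNC, E14.5 cornea and E16.5 cornea. Each sample was a pool of dissected tissue. At E10.5 the ectoderm, lens vesicle and optic cup were removed after dispase, whereas the corneas kept all their layers. The dissection and the stage therefore changed together and cannot be told apart in a comparison with E10.5. Expected counts summed to between 8745161 and 9069023 in each sample. The p-values of the main test measure only the spread between pooled samples of the same stage, with 3 samples per stage. That spread was estimated from all 9 samples together, so the stage left out of a comparison also bears on its p-value.

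The labelled tissues were checked against marker lists. Summed over 10 epithelium markers, the mean FPKM (fragments scaled to transcript length and to the mapped fragments of the sample, the scale on which levels are given) was 52.2 in the pNC, 1393 in the E14.5 cornea and 6616 in the E16.5 cornea. At E10.5, Krt12, the keratin of the corneal epithelium, was the only one of the 10 under 1 FPKM on average, and Epcam was the highest at 10.8 FPKM. Over 6 stroma markers the sums were 169, 3849 and 9831 FPKM, and Kera, which encodes the stromal proteoglycan keratocan, was the one under 1 FPKM on average at E10.5. The 9 markers of periocular crest mesenchyme summed to 340.0, 531 and 339 FPKM, and 2 of them were called higher and 4 lower in each cornea stage than in the pNC. The 7 vascular endothelium markers summed to 176, 79.8 and 31.5 FPKM, of which 6 were called lower in each comparison, whereas Kdr was at 26.8, 30.3 and 26.2 FPKM and was not called. Neuron and glial crest markers summed to 164, 11.2 and 9.15 FPKM over 6 genes. The 7 markers of optic cup, retina and lens summed to 18.8, 4.59 and 3.16 FPKM, and 5 skeletal muscle markers to 12.9, 0.177 and 0.0933 FPKM. For 6 corneal endothelium markers the sums were 111, 434 and 379 FPKM, for 6 erythroid markers 6629, 2127 and 1019 FPKM, and for 6 leukocyte markers 19.9, 41.2 and 15.2 FPKM.

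Replicate 1 of the E14.5 cornea stood apart from the other E14.5 samples. Its epithelium markers summed to 2423 FPKM against 812 and 943, and its Kera level was 803 FPKM against 83.1 and 151. Of the 10 genes, 7 lay outside the other E14.5 samples in it, all on the side of E16.5, beside 61.7% of 14304 genes with a mean of at least 1 FPKM in some stage. Where its absence changed a call or a test of the 10 genes, or ended an overlap described here, the result without it is given too.

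From E10.5 to E16.5, Twist2, Cdh1 and Zeb2 rose and Snai1 and Cdh2 fell by at least the minimum fold of a call. Snai2 and Vim were higher and Zeb1 lower by less than that fold at an adjusted p under 0.05, and Twist1 and Cdh11 did not pass. A call needed a log2 fold change of 1 or more in either direction and an adjusted p (Benjamini-Hochberg) under 0.05, by the edgeR quasi-likelihood test over 14771 genes. All 10 genes passed the filter on low counts. From E10.5 to E14.5, 2 were called higher (Twist2 and Cdh1) beside 13.6% of all genes tested, and 1 lower (Snai1) beside 7.97%. From E10.5 to E16.5, 3 were called higher (Twist2, Cdh1 and Zeb2) beside 19.4%, and 2 lower (Snai1 and Cdh2) beside 15.4%. From E14.5 to E16.5, 1 was called higher (Vim) beside 6.26%, and 1 lower (Cdh2) beside 5.47%.

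Without the minimum fold, 5 of the 10 genes passed adjusted p under 0.05 from E10.5 to E14.5 beside 56.4% of all genes, 8 from E10.5 to E16.5 beside 69.8%, and 5 from E14.5 to E16.5 beside 35.0%. The FPKM of the stages did not overlap for 5, 9 and 5 of the 10 in the same order, beside 61.0%, 77.2% and 53.2% of all genes. The median log2 fold change of the 10 genes was 0.02, 0.58 and -0.02, beside 0.01, 0.00 and -0.02 over all genes tested. Without E14.5 replicate 1, Cdh1 was also called higher from E14.5 to E16.5, which made 2, and without E10.5 replicate 3, Snai2 was called higher and Cdh2 lower from E10.5 to E14.5. With library totals in place of TMM scaling, the median of all genes moved by -0.15 in E16.5 against E10.5 and by -0.16 in E16.5 against E14.5, and the genes called split into 2503 higher and 2695 lower in the former, in place of 2862 and 2282, and into 731 and 1099 in the latter, in place of 924 and 808. The 3 comparisons share samples, so their values for a gene are set side by side and not counted as separate evidence.

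**Figure D1:**
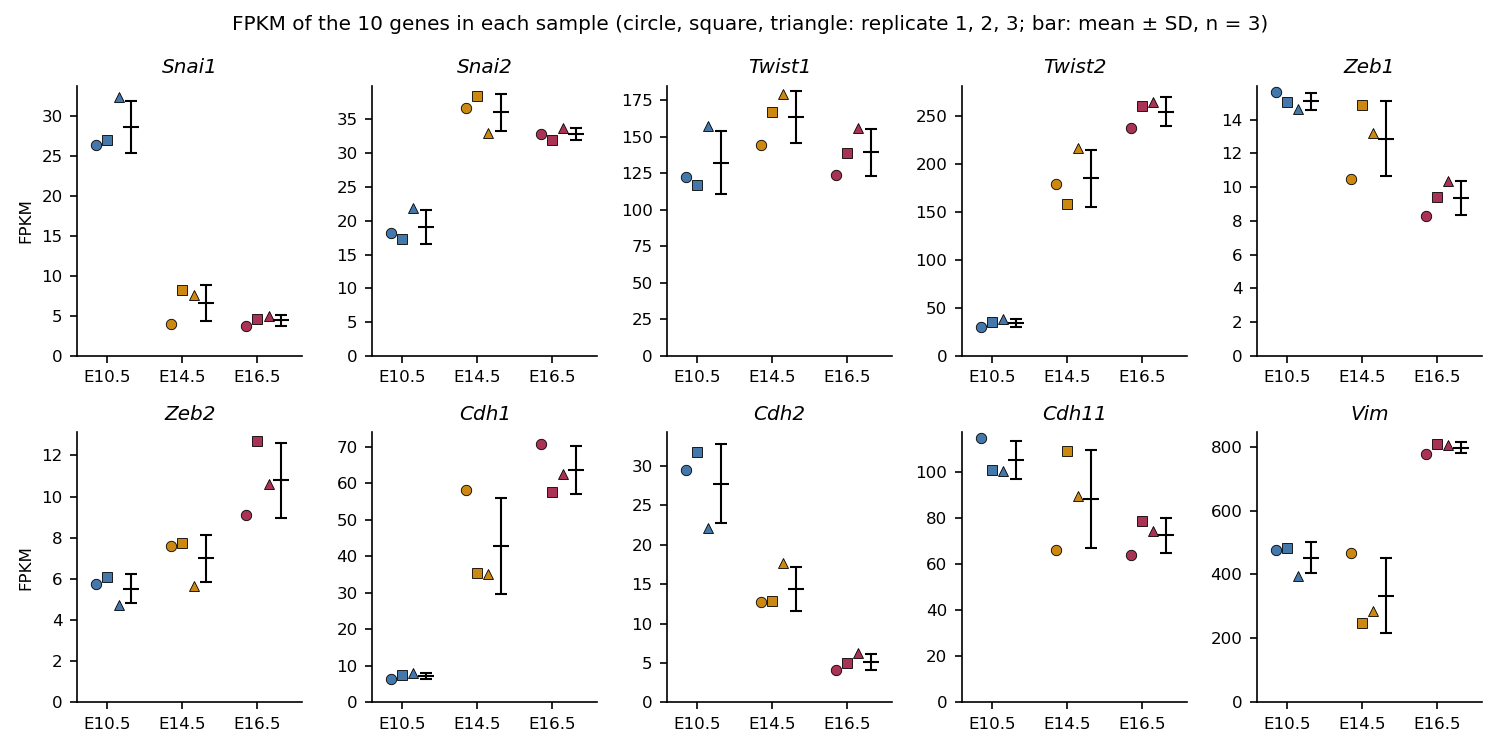
FPKM of the 10 genes in each sample (y axis, one panel per gene) by stage (x axis). Circles, squares and triangles are replicates 1, 2 and 3, and the black bars are the mean and SD of 3 samples. Snai1 and Cdh2 are highest at E10.5, Twist2 and Cdh1 at E16.5, and the Twist1 ranges of the stages overlap.

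Snai1 encodes Snail, a zinc finger repressor of Cdh1 that acts early in crest EMT. Its gene lies on chromosome 2 at 167538195 to 167542814 of GRCm38. The FPKM levels were 26.5, 27.1 and 32.4 at E10.5, then 4.06, 8.22 and 7.62 at E14.5 and lastly 3.71, 4.66 and 4.99 at E16.5. Every E10.5 sample lay above every cornea sample, whereas the cornea stages overlapped, since E14.5 replicate 1 lay within the E16.5 range. Snai1 fell by 2.12 on the log2 scale from E10.5 to E14.5 (SE 0.22, edgeR adjusted p = 2.47e-05) and by 2.53 from E10.5 to E16.5 (SE 0.23, adjusted p = 3.73e-06). From E14.5 to E16.5 the log2 fold change was -0.41 (SE 0.25, edgeR adjusted p = 0.223). Without E14.5 replicate 1 the latter became -0.67 with an edgeR adjusted p of 0.00629. Its mean level ranked 3053 of the 18220 genes listed at E10.5 and 10113 of 18099 at E16.5.

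Snai2 encodes Slug, the paralogue of Snail that marks crest cells in many vertebrates, from chromosome 16 at 14705852 to 14709395. It was measured at 18.1, 17.2 and 21.95 FPKM in the pNC, at 36.7, 38.4 and 32.9 FPKM in the E14.5 cornea, and at 32.9, 31.9 and 33.7 FPKM in the E16.5 cornea. All cornea samples exceeded all pNC samples, and the cornea stages overlapped. The log2 fold change was 0.90 from E10.5 to E14.5 (SE 0.10, edgeR adjusted p = 3.62e-05) and 0.93 from E10.5 to E16.5 (SE 0.10, edgeR adjusted p = 1.20e-05), both short of the minimum fold of a call. Without E10.5 replicate 3 these became 1.005 and 1.03, and Snai2 was called in both. From E14.5 to E16.5 the change was 0.03 (edgeR adjusted p = 0.839), and its sign depended on the scaling.

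The Snail genes took opposite courses, and the makeup of their summed level changed. The sum of Snai1 and Snai2 was 47.8 ± 5.70 FPKM in the pNC, 42.6 ± 3.48 FPKM in the E14.5 cornea and 37.3 ± 1.20 FPKM in the E16.5 cornea (SD, n = 3), with every E16.5 sample below every pNC sample. Snai2 made up 40.0% ± 0.977 of that sum in the pNC, 84.5% ± 4.79 in the E14.5 cornea and 88.1% ± 1.55 in the E16.5 cornea. Within a sample, Snai2 stood at 0.686, 0.636 and 0.678 times the FPKM of Snai1 at E10.5, 9.03, 4.68 and 4.32 times at E14.5, and 8.87, 6.85 and 6.75 times in the E16.5 cornea. Snai1 was thus the higher of the pair in every pNC sample and Snai2 in every cornea sample, and the cornea stages overlapped only through E14.5 replicate 1. Without it, both E14.5 ratios lay below all E16.5 ratios.

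The upstream sequence of Snai1 is shown because the gene had the largest fall of the 6 factors, with that of Twist2, which had the largest rise. RefSeq promoter entries of GRCm38 were matched for 5 of the 10 genes (Snai1, Twist1, Twist2, Zeb2 and Vim). Entries for Snai2, Zeb1, Cdh1, Cdh2 and Cdh11 are missing. The lines give the 250 bases before the transcription start, 5′ to 3′ on the plus strand, at chr2:167537945-167538194 for Snai1 and chr1:91801211-91801460 for Twist2, with any E-box of the form CANNTG in capitals.
Snai1: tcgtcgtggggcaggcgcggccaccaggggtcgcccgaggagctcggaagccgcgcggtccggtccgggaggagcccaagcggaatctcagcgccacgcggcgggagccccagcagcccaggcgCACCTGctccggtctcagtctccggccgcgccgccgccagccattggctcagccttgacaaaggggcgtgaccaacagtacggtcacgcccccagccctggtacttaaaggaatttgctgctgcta
Twist2: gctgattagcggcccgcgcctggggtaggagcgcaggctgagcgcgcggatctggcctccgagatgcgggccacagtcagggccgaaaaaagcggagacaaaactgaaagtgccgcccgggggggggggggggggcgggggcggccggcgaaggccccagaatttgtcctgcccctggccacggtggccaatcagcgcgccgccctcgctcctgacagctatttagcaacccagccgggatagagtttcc
The Snai1 stretch held 1 E-box, CACCTG, which reads CAGGTG on the other strand and begins 126 bases before the start. No CANNTG was found in this window of Twist2, Twist1 or Vim, nor in any of the 4 Zeb2 entries. CANNTG is its own reverse complement, so a match counts for both strands, and it was present in 66.2% of 32851 RefSeq windows of the same length. CAGGTG on either strand, one of the forms of CANNTG, was present in 17.2%. A match of letters describes the sequence only.

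Twist1 encodes a basic helix-loop-helix factor of cranial mesenchyme and crest, on chromosome 12 at 33957671 to 33959831. It was the highest of the 6 factors at E10.5, with 123, 117 and 157 FPKM, and was measured at 144.6, 167 and 179 FPKM in the E14.5 cornea and 124, 139 and 156 FPKM in the E16.5 cornea. The stages overlapped in each comparison. The overlap of E14.5 with the other stages came from E14.5 replicate 1, since the other E14.5 samples lay above all E10.5 and all E16.5 samples. The log2 fold changes were 0.29 (SE 0.14, edgeR adjusted p = 0.0963) from E10.5 to E14.5, 0.22 (edgeR adjusted p = 0.177) from E10.5 to E16.5 and -0.07 (edgeR adjusted p = 0.729) from E14.5 to E16.5. The change from E10.5 to E14.5 passed adjusted p under 0.05 without E10.5 replicate 3, without E14.5 replicate 1 and under a replicate block (edgeR adjusted p = 0.0189, 0.027 and 0.0264), with a highest value of 0.43 over all alternatives. From E10.5 to E16.5 it passed without E10.5 replicate 3, at 0.36 (edgeR adjusted p = 0.0304).

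Twist2, also called Dermo1, is the paralogue known from dermal and other connective tissue precursors, and lies on chromosome 1 at 91801461 to 91848034. Its levels were 29.9, 35.3 and 38.5 FPKM at E10.5, 179, 159 and 216 FPKM at E14.5, and in the E16.5 cornea 237, 261 and 265 FPKM. The 3 stages did not overlap at any point. Twist2 rose by 2.41 on the log2 scale from E10.5 to E14.5 (SE 0.14, adjusted p = 4.80e-07 by edgeR) and by 3.03 from E10.5 to E16.5 (SE 0.15, adjusted p = 8.03e-08 by edgeR). The further change from E14.5 to E16.5 was 0.62 (SE 0.13, edgeR adjusted p = 0.0056), under the minimum fold. The gene moved from rank 2484 of 18220 listed genes at E10.5 to rank 197 of 18099 at E16.5.

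Together the Twist genes summed to 166.9 ± 24.9 FPKM in the pNC, 349 ± 40.9 in the E14.5 cornea and 394 ± 30.5 in the E16.5 cornea (SD, n = 3). Twist2 contributed 20.8% ± 2.02 of this sum in the pNC, 52.9% ± 3.70 in the E14.5 cornea and 64.6% ± 1.5 in the E16.5 cornea. At E14.5 the levels of the pair overlapped, with Twist2 at 1.24, 0.947 and 1.21 times Twist1. At E10.5 the ratio lay between 0.244 and 0.301 and at E16.5 between 1.70 and 1.92, so that Twist1 was the higher in all pNC samples and Twist2 in all E16.5 samples.

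Zeb1 and Zeb2 encode zinc finger and homeodomain repressors of epithelial genes, and Zeb2 is also known for its part in crest formation. Zeb1 was measured at 15.6, 15.03 and 14.6 FPKM in the pNC, at 10.47, 14.9 and 13.2 FPKM in the E14.5 cornea, and at 8.30, 9.42 and 10.4 FPKM in the E16.5 cornea. All E16.5 samples lay below all E14.5 samples and all E10.5 samples, and the E10.5 and E14.5 samples overlapped. Zeb1 fell by 0.54 on the log2 scale from E10.5 to E16.5 (SE 0.13, edgeR adjusted p = 0.00303), which is under the minimum fold. The earlier and the later step gave -0.24 (edgeR adjusted p = 0.123) and -0.30 (edgeR adjusted p = 0.0986). The later step passed adjusted p under 0.05 in 5 of 19 alternatives, library totals and the absence of E14.5 replicate 1 (-0.43, edgeR adjusted p = 0.00342) among them.

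Zeb2, on chromosome 2 at 44983512 to 45117442, was at 5.77, 6.09 and 4.73 FPKM in the pNC, 7.58, 7.74 and 5.67 FPKM in the E14.5 cornea, and 9.08, 12.7 and 10.6 FPKM in the E16.5 cornea. Every E16.5 sample exceeded every earlier sample, while the first pair of stages overlapped. The log2 fold change was 1.12 from E10.5 to E16.5 (SE 0.15, edgeR adjusted p = 6.44e-05), 0.79 from E14.5 to E16.5 (SE 0.15, edgeR adjusted p = 0.00305) and 0.32 from E10.5 to E14.5 (edgeR adjusted p = 0.0955). The call from E10.5 to E16.5 was lost in 6 of 19 alternatives, where the value fell below the minimum fold (lowest 0.85 over all alternatives), among them library totals and the absence of E16.5 replicate 2.

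The summed level of the Zeb genes was 20.6 ± 1.12, 19.9 ± 2.42 and 20.2 ± 2.47 FPKM (SD, n = 3) at the 3 stages in turn. The share of Zeb2 was 26.8% ± 2.19, 35.4% ± 6.08 and 53.4% ± 3.56 in the same order. Zeb2 stood at 0.324 to 0.405 times Zeb1 in the pNC, 0.429 to 0.724 times in the E14.5 cornea and 1.03 to 1.35 times in the E16.5 cornea, without overlap between stages. In all 3 families the second member therefore gained share on the first, and in the Zeb family the crossing came only between E14.5 and E16.5. At E14.5 the ranges of Zeb2 and Snai1 overlapped and lay below those of the other 4 factors, and Zeb2 exceeded Snai1 in each E16.5 sample.

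**Figure D2:**
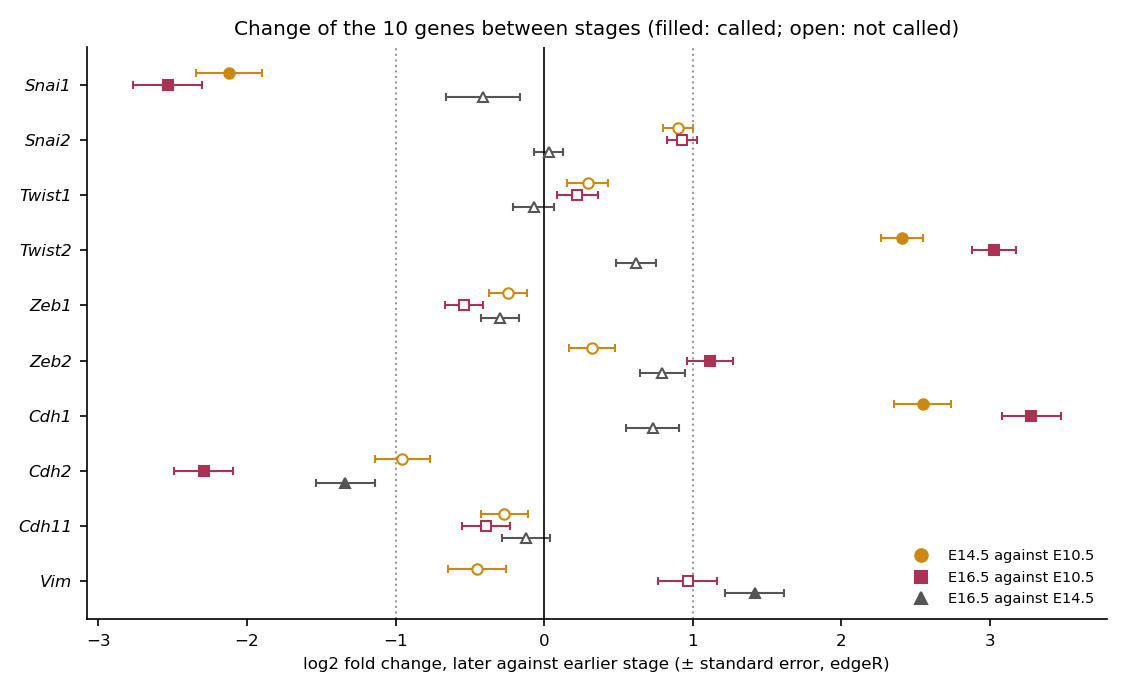
The log2 fold change (x axis, later against earlier stage) of the 10 genes (y axis), with the standard error as bars, from the edgeR quasi-likelihood test. Circles are E14.5 against E10.5, squares E16.5 against E10.5 and triangles E16.5 against E14.5; filled symbols were called, open symbols were not, and dotted lines mark a change of 1. Twist2 at 3.03 and Cdh1 at 3.28 lie farthest to the right, Snai1 at -2.53 and Cdh2 at -2.29 farthest to the left.

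Cdh1 encodes E-cadherin, which joins epithelial cells at adherens junctions. It lies on chromosome 8 at 106603350 to 106670247. It was measured at 6.28, 7.46 and 8.0 FPKM in the pNC, 58.1, 35.5 and 35.1 FPKM in the E14.5 cornea, and 70.7, 57.6 and 62.5 FPKM in the E16.5 cornea. No cornea sample came near the pNC samples, and the cornea stages overlapped because E14.5 replicate 1 reached the E16.5 range. Cdh1 rose by 2.55 on the log2 scale from E10.5 to E14.5 (SE 0.19, adjusted p = 2.38e-06 by edgeR) and by 3.28 from E10.5 to E16.5 (SE 0.20, adjusted p = 2.49e-07 by edgeR). The step from E14.5 to E16.5 was 0.73 (SE 0.18, edgeR adjusted p = 0.00949) and became 1.002, a call, without E14.5 replicate 1.

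Markers of epithelium moved with Cdh1. In bulk tissue, fewer cells of a type and less RNA per cell cannot be told apart, and the ectoderm was taken off the E10.5 samples only. All 10 epithelium markers were called higher in both cornea stages than in the pNC, and their sum ranged from 41.3 to 57.7 FPKM in the pNC, from 812 to 2423 in the E14.5 cornea and from 5752 to 8296 in the E16.5 cornea. The part of this in the rise of Cdh1 was not tested. The sum was led by keratins, with Krt5 at 2377 and Krt15 at 2109.5 FPKM at E16.5. Of the 10 markers, 9 had a larger log2 fold change from E10.5 to E16.5 than Cdh1, from 3.69 for Trp63 to 11.04 for Krt12, and Epcam had a smaller one of 1.39. Per 100 FPKM of the markers, the level of Cdh1 was 14.01 ± 1.14 FPKM in the pNC, 3.50 ± 1.01 in the E14.5 cornea and 0.977 ± 0.115 in the E16.5 cornea (SD, n = 3). Against Epcam, which encodes another adhesion protein of epithelia, Cdh1 stood at 0.670 ± 0.0399, 1.10 ± 0.263 and 2.48 ± 0.207 times its FPKM in the same order.

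Cdh2 encodes N-cadherin of neural tissue, crest and many mesenchymes, and lies on chromosome 18. It was at 29.4, 31.7 and 22.1 FPKM in the pNC, 12.8, 12.8 and 17.6 FPKM in the E14.5 cornea, and 4.13, 4.95 and 6.22 FPKM in the E16.5 cornea. The 3 stages formed 3 separate ranges, each lower than the one before. Cdh2 fell by 2.29 on the log2 scale from E10.5 to E16.5 (SE 0.20, adjusted p = 2.31e-06 by edgeR) and by 1.34 from E14.5 to E16.5 (SE 0.20, adjusted p = 0.00102 by edgeR). From E10.5 to E14.5 the change was -0.95 (SE 0.18, edgeR adjusted p = 0.00129), just under the minimum fold. That step was called without E10.5 replicate 3 or without E14.5 replicate 3, with a value of -1.14 at most.

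Summed markers of optic cup, retina and lens, of neurons and glial crest, and of vascular endothelium were, like Cdh2, highest in the pNC. The 7 optic cup, retina and lens markers summed to 23.5, 26.5 and 6.33 FPKM in replicates 1 to 3 of the pNC, the 6 neuron and glial crest markers to 180.2, 195 and 118, and the 7 vascular endothelium markers to 205, 195 and 127. Cdh2 was also lowest in replicate 3 of the pNC. So were the sums of stroma, corneal endothelium, erythroid, leukocyte and skeletal muscle markers, but not those of epithelium and periocular crest mesenchyme. In the E14.5 cornea the sums ranged from 3.57 to 5.80, from 9.47 to 14.4 and from 53.8 to 96.1 FPKM in the same order of lists, and in the E16.5 cornea from 2.08 to 4.14, from 8.31 to 9.86 and from 23.4 to 37.8 FPKM. The vascular endothelium sum thus fell with Cdh2 between the cornea stages too, with 6 of its 7 markers called lower. Not every list fell from the pNC to the corneas. Corneal endothelium markers rose, with a mean sum of 111 FPKM in the pNC against 434 FPKM (E14.5 cornea) and 379 FPKM (E16.5 cornea). The part of any of these tissues in the fall of Cdh2 was not tested.

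Cdh11 encodes a cadherin of loose mesenchyme and of migrating crest, from chromosome 8 at 102632095 to 102785493. Its levels were 115, 101 and 100.4 FPKM in the pNC, 66.4, 109 and 89.7 FPKM in the E14.5 cornea, and 64.2, 78.8 and 74.7 FPKM in the E16.5 cornea. They were the highest of the 3 cadherins in 8 of the 9 samples, the exception being E16.5 replicate 1. All E16.5 samples lay below all pNC samples, and both overlapped with the broad E14.5 range. The overlap with E16.5 came from E14.5 replicate 1, since the other E14.5 samples lay above all E16.5 samples. The log2 fold change from E10.5 to E16.5 was -0.39 (SE 0.16, edgeR adjusted p = 0.0504). The adjusted p crossed 0.05 in 11 of 19 alternatives and lay between 0.00314 and 0.171. The edgeR adjusted p was 0.00371 without E14.5 replicate 1, which is in neither stage compared but enters the shared estimate of spread. The steps of -0.27 from E10.5 to E14.5 (edgeR adjusted p = 0.181) and -0.12 from E14.5 to E16.5 (edgeR adjusted p = 0.593) did not pass with all samples. The former was -0.43 without E14.5 replicate 2 (edgeR adjusted p = 0.0389) and the latter -0.30 without E14.5 replicate 1 (edgeR adjusted p = 0.0461).

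**Figure D3:**
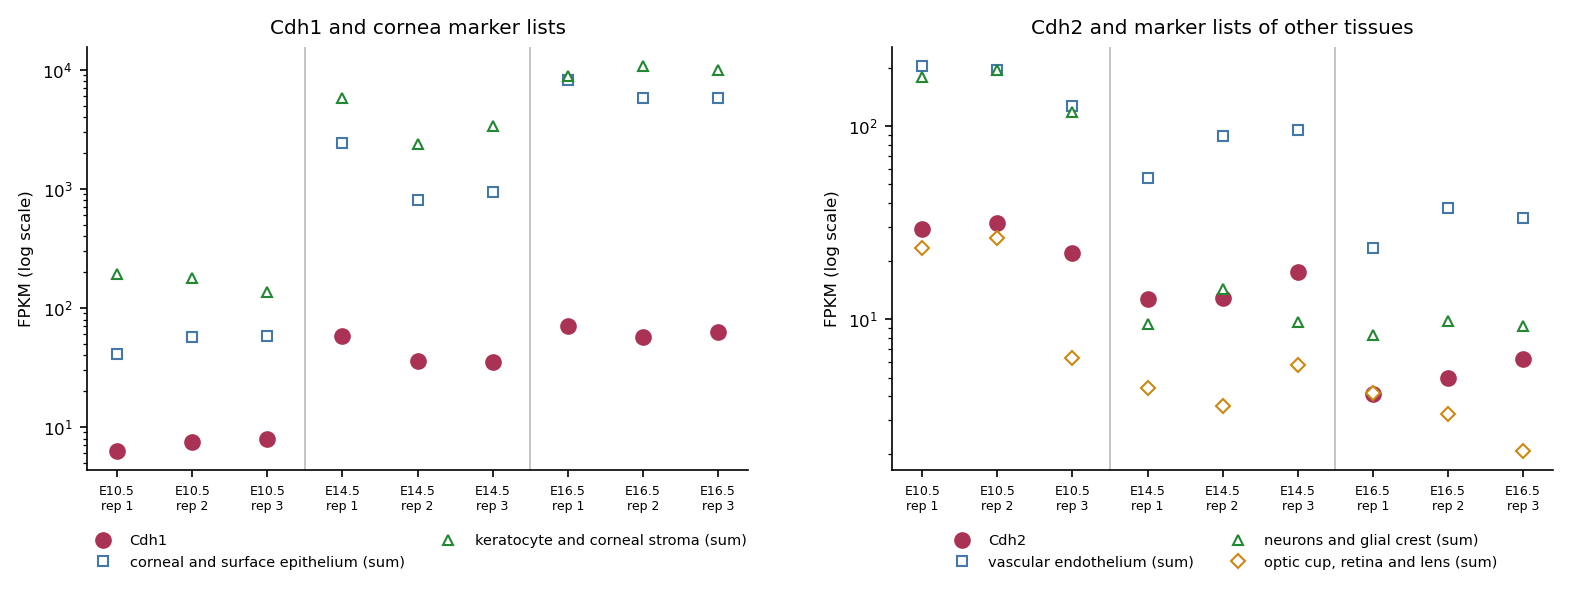
FPKM on a log scale (y axis) in each sample (x axis) of Cdh1 with the summed epithelium and stroma markers (left) and of Cdh2 with the summed markers of vascular endothelium, neurons and glial crest, and optic cup, retina and lens (right). Filled circles are the cadherin and open symbols the sums. Epithelium markers run from 41.3 to 8296 FPKM while Cdh1 runs from 6.28 to 70.7, and pNC replicate 3 is lowest of its stage for Cdh2 and for the 3 sums beside it. That replicate is also lowest for several marker lists not shown on the right.

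The balance of the 3 cadherins changed while their sum did not move beyond its spread. Cdh1, Cdh2 and Cdh11 summed to 140.3 ± 9.998 FPKM in the pNC, 145.8 ± 10.504 in the E14.5 cornea and 141 ± 2.23 in the E16.5 cornea (SD, n = 3). Cdh1 contributed 5.21% ± 0.984 of the sum in the pNC, 29.8% ± 10.9 in the E14.5 cornea and 45.1% ± 5.22 in the E16.5 cornea. Cdh2 contributed 19.7% ± 2.87, 9.94% ± 2.18 and 3.60% ± 0.688, and Cdh11 75.1% ± 2.68, 60.2% ± 10.7 and 51.3% ± 4.83. In E14.5 replicate 1 the share of Cdh1 was 42.3%, within the E16.5 range of 40.7% to 50.9%, against 22.5% and 24.7% in the other E14.5 samples.

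Within a sample, Cdh1 stood at 0.214, 0.235 and 0.363 times the FPKM of Cdh2 in the pNC, at 4.55, 2.77 and 1.99 times in the E14.5 cornea, and at 17.1, 11.6 and 10.05 times in the E16.5 cornea. Cdh2 was the higher of the pair in every pNC sample and Cdh1 in every cornea sample, and no stage overlapped another. The log2 ratio was -1.93 ± 0.41, 1.55 ± 0.60 and 3.66 ± 0.40 (SD, n = 3), a 47.9-fold change of the ratio from E10.5 to E16.5. A ratio within a sample does not depend on the scaling between samples. Cdh1 against Cdh11 moved from a geometric mean of 0.0686 in the pNC to 0.481 and then 0.876, with overlap between the cornea stages. That overlap came from E14.5 replicate 1 at 0.875, since the other E14.5 samples, at 0.325 and 0.392, lay below all E16.5 samples. Cdh11 against Cdh2 moved from 3.84 to 6.09 and 14.4, without overlap.

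**Figure D4:**
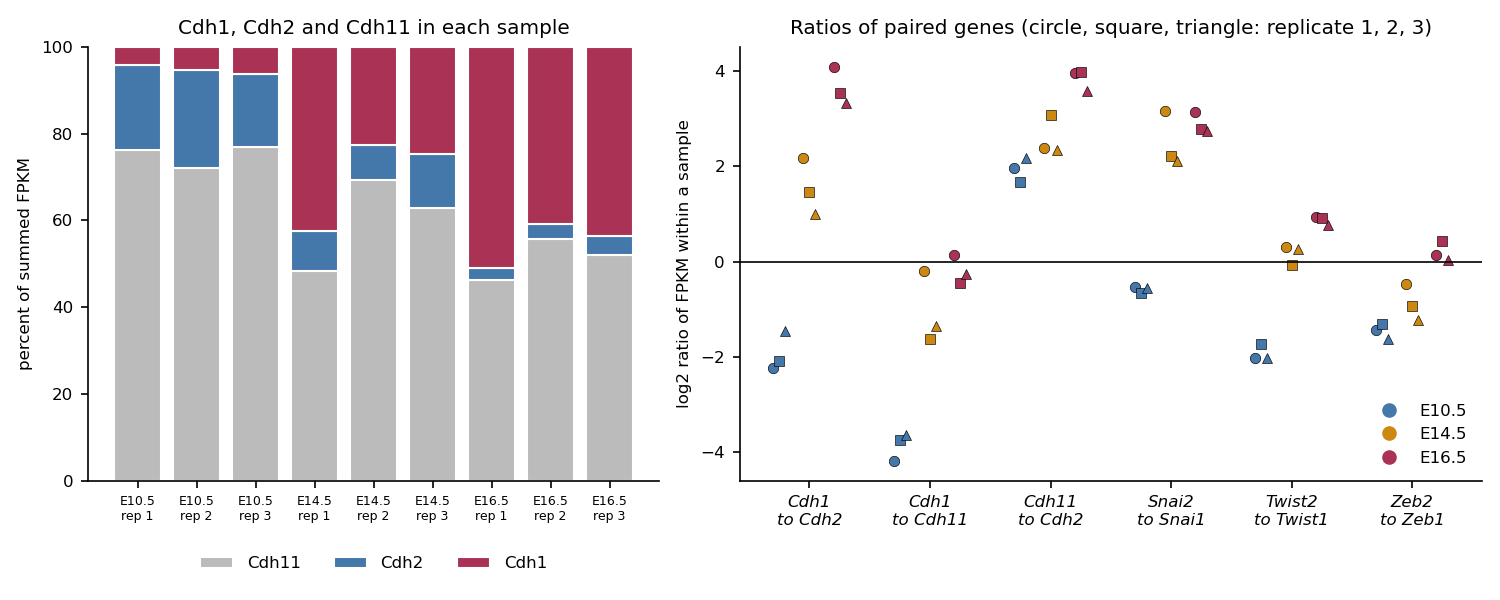
Left, the percent of the summed FPKM of Cdh1, Cdh2 and Cdh11 (y axis) that each contributed in every sample (x axis). Right, the log2 ratio of FPKM within a sample (y axis) for 6 pairs of genes (x axis), with 1 symbol per sample coloured by stage. The Cdh1 to Cdh2 ratio lies below 0 in the 3 pNC samples and above 0 in the 6 cornea samples, and the share of Cdh1 grows from 5.21% to 45.1% on average.

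Vim encodes vimentin, the intermediate filament protein of mesenchyme that is widely used to mark EMT, and lies on chromosome 2 at 13574311 to 13582826. It had the highest level of the 10 genes in every sample, at 477, 483 and 396 FPKM in the pNC, 468, 248 and 287 FPKM in the E14.5 cornea, and 776, 808 and 805 FPKM in the E16.5 cornea. All E16.5 samples exceeded all earlier ones, while the E14.5 samples were either within the pNC range (replicate 1) or below it. Vim rose by 1.42 on the log2 scale from E14.5 to E16.5 (SE 0.20, adjusted p = 8.78e-04 by edgeR). From E10.5 to E16.5 the change was 0.97 (SE 0.20, edgeR adjusted p = 0.00118), and it reached a call without E10.5 replicate 1 or replicate 2, with 1.01 at most. From E10.5 to E14.5 it was -0.45 (SE 0.20, edgeR adjusted p = 0.0722), and -0.76 without E14.5 replicate 1, where it passed adjusted p under 0.05. Vim and Cdh1 were therefore both at their highest mean at E16.5, in tissue that holds stroma and epithelium together.

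In the order of levels over all 22 classical and related cadherins considered, Cdh11 was first at each stage. At E10.5 it was followed by Cdh5, the cadherin of blood vessels, at 31.9 ± 10.1 FPKM, Cdh24 at 29.2 ± 2.66 and Cdh2 at 27.7 ± 5.04, whose samples overlapped, and Cdh1 was seventh at 7.25 ± 0.880 (SD, n = 3). At E14.5 Cdh1 came next to Cdh11 at 42.9 ± 13.2 FPKM, with Cdh3, which encodes P-cadherin of basal epithelia, at 36.6 ± 1.28, and the samples of Cdh1 and Cdh3 overlapped. This order and the overlap rested on E14.5 replicate 1, where Cdh1 was at 58.1 FPKM. In E14.5 replicates 2 and 3, Cdh1 was at 35.5 and 35.1 FPKM, below Cdh3 at 36.1 and 38.05. Cdh6 came next on average at 24.5 ± 7.92 FPKM, ahead of Cdh24 at 24.0 ± 4.02, with overlap. At E16.5 Cdh1 was at 63.6 ± 6.62 FPKM and overlapped with Cdh11 at 72.6 ± 7.55, both above Cdh3 at 28.5 ± 1.43. Cdh6 at 17.3 ± 2.35 FPKM and Cdh24 at 12.2 ± 0.629 followed. After these came Cdh10 at 5.87 ± 0.343 and then Cdh2, and the samples of Cdh10 and Cdh2 overlapped.

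Of 19 other cadherins, 13 passed the filter, and 7 of them were called higher and 4 lower from E10.5 to E14.5, 8 and 5 from E10.5 to E16.5, and 2 and 2 from E14.5 to E16.5. Only 5 of the 19 reached a mean of 5 FPKM in some stage, so many of these calls are of genes at low levels. For this list and those that follow, the shares of all genes called higher and lower were 13.6% and 7.97% from E10.5 to E14.5. They were 19.4% and 15.4% from E10.5 to E16.5, and 6.26% and 5.47% from E14.5 to E16.5. The medians of the log2 fold changes of these 13 cadherins were 1.15, 1.07 and -0.20 in the same order. Cdh5 fell by 4.58 on the log2 scale from E10.5 to E16.5 (edgeR adjusted p = 1.49e-05), and is itself one of the vascular endothelium markers. Cdh10 rose by 2.16 and Cdh3 by 1.47, and Cdh24 fell by 1.12 over the same interval. With library totals the calls of this list became 6 higher and 5 lower from E10.5 to E16.5, and 2 higher and 4 lower from E14.5 to E16.5. Some catenins tie cadherins to the cytoskeleton. Among 7 tested catenins and relatives of them, 2 were called higher and 1 lower from E10.5 to E14.5 (Ctnnal1 and Ctnnd2, and Ctnna2) and from E10.5 to E16.5 (Jup and Ctnnd2, and Ctnna2). Jup, which encodes plakoglobin, rose by 2.5 and Ctnnd2, a neural relative of the catenin encoded by Ctnnd1, by 2.0 from E10.5 to E16.5, and Ctnna2, the neural alpha catenin, fell by 5.58, from a mean of 6.50 to 0.12 FPKM. From E14.5 to E16.5, 1 catenin was called higher and 1 lower, and the medians of the list were 0.27, 0.09 and -0.04.

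Among other transcription factors tied to EMT, the only call higher was that of Tcf4, which is also a Twist partner, and it was lost from E10.5 to E16.5 with library totals. Of 11 tested, 1 was called higher and 4 lower from E10.5 to E14.5, and 1 and 6 from E10.5 to E16.5, with medians of -0.71 and -1.01 on the log2 scale. From E14.5 to E16.5, 1 was called lower, with a median of -0.30. Gsc, a homeobox gene of cranial mesenchyme, went from 9.43 FPKM in the pNC to 0.033 FPKM at E14.5 and was listed in no E16.5 sample. Foxc2, a forkhead factor of periocular mesenchyme, fell by 5.17 from E10.5 to E16.5, from 30.4 to 0.757 FPKM. The crest factors Sox9 and Sox10 fell by 2.6 and 2.42 over the same interval, both at edgeR adjusted p under the threshold (4.17e-07 and 3.04e-05), and their levels in the E16.5 cornea were 2.03 and 2.40 FPKM. Sox10 is also a marker of glial crest, whose list sum fell from 164 to 9.15 FPKM, and the part of this in its fall was not tested.

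Twist proteins act as dimers with E proteins and are held in check by Id proteins. Of 7 such partners tested, 1 was called higher and 1 lower from E10.5 to E14.5, 1 and 3 from E10.5 to E16.5, and 1 and 1 from E14.5 to E16.5, with medians of -0.35, -0.29 and -0.25. The shares of all genes called were 13.6% and 7.97%, 19.4% and 15.4%, and 6.26% and 5.47% in the same order. Of the E proteins, Tcf4 rose by 1.45 from E10.5 to E14.5 and by 1.15 from E10.5 to E16.5 (edgeR adjusted p = 1.08e-05 and 2.13e-05), and Tcf3 fell by 1.01 from E10.5 to E16.5, from 145.2 to 65.2 FPKM. The inhibitors Id3 and Id2 fell by 2.08 and 1.32 from E10.5 to E16.5, Id3 from 225 to 48.0 FPKM and Id2 from 119 to 43.3 FPKM. The inhibitor Id4 was the partner called higher from E14.5 to E16.5, by 1.11 (edgeR adjusted p = 0.025), from 3.66 to 7.07 FPKM. With library totals, no partner was called higher from E10.5 to E16.5 or from E14.5 to E16.5. The call of Tcf4 in the former and that of Id4 in the latter thus depended on the scaling. The call lower from E10.5 to E14.5, that of Id2 at -1.09, was lost without E14.5 replicate 1.

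Of 17 corepressors and turnover factors of Snail and Zeb proteins tested, 1 was called higher and 1 lower from E10.5 to each cornea stage and none from E14.5 to E16.5 by edgeR, DESeq2 or limma. In that last comparison 7 had an unadjusted p under 0.05 by edgeR, 6 by DESeq2 and 11 by limma. The shares of all genes called higher and lower were 13.6% and 7.97% from E10.5 to E14.5 and 19.4% and 15.4% from E10.5 to E16.5. From E14.5 to E16.5 they were 6.26% and 5.47%. Without the minimum fold, 13, 12 and 5 of the 17 passed adjusted p under 0.05 by edgeR in the same order of comparisons. The shares of all genes that passed were 56.4%, 69.8% and 35.0%. Ctbp2, a corepressor recruited by Zeb proteins, fell by 1.0 from E10.5 to E14.5 and by 1.72 from E10.5 to E16.5, from 42.2 to 11.6 FPKM. Ajuba, a LIM protein that links Snail to corepressors, rose by 1.12 and 1.07, from 42.7 to 93.6 and 81.2 FPKM. The medians of the list were 0.05, 0.03 and -0.13. The call of Ctbp2 from E10.5 to E14.5 was lost with library totals, without E14.5 replicate 1 and without E10.5 replicate 3, and that of Ajuba from E10.5 to E16.5 with library totals.

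Genes of the epithelial state rose together with Cdh1. Of 11 factors known to hold cells epithelial, 10 were called higher from E10.5 to E14.5, 11 from E10.5 to E16.5, and 6 from E14.5 to E16.5, with medians of 2.89, 3.60 and 1.28. Klf5, a factor of basal epithelia, rose by 6.28 on the log2 scale from E10.5 to E16.5 (SE 0.53, adjusted p = 1.94e-06 by edgeR), from 0.773 to 55.1 FPKM. Over the same interval Grhl1, a grainyhead factor, rose by 6.21, Ovol1, a repressor of Zeb1 in other epithelia, by 5.02, and Esrp2, a splicing factor of epithelial transcripts, by 4.81.

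Of 23 junction genes of epithelia, 20, 22 and 16 were called higher in the 3 comparisons, with medians of 2.36, 3.95 and 1.51. The desmosome genes Pkp1, Dsg3, Dsc3 and Dsp led by the naming rule, and Dsp reached 175 FPKM at E16.5 from 2.17 at E10.5. Dsc3 was at 31.4 FPKM in the E14.5 cornea and 19.3 FPKM in the E16.5 cornea, a log2 fold change of -0.54 (edgeR adjusted p = 0.195). Its E14.5 replicate 1 was at 14.46 FPKM against 43.0 and 36.7, and without it the change was -0.89 (edgeR adjusted p = 6.59e-05). Of 7 keratins, 6, 6 and 4 were called higher, with medians of 5.07, 6.78 and 1.71. Krt5, Krt14, Krt15 and Krt19 had the largest rises, and Krt5 went from 3.66 FPKM in the pNC to 1042, 343 and 416 FPKM in the E14.5 samples and a mean of 2377 FPKM at E16.5. Without E14.5 replicate 1, 9 of the factors and 19 of the junction genes were called higher from E10.5 to E14.5, and 18 junction genes and 5 keratins from E14.5 to E16.5. Krt5, Krt14, Krt15, Dsp, Epcam and Perp and, among the factors, Trp63 are also in the epithelium marker list. The part in these rises of the epithelium, which was present in the corneas and removed from the pNC, was not tested.

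Mesenchymal genes often read as signs of EMT rose in part. Of 19 tested, 9 were called higher from E10.5 to E14.5, 10 higher and 1 lower from E10.5 to E16.5, and 6 and 2 from E14.5 to E16.5, with medians of 0.89, 1.39 and 0.29. Col1a1, which encodes the main fibrillar collagen of the stroma, rose by 6.43 on the log2 scale from E10.5 to E16.5 (SE 0.43, edgeR adjusted p = 4.41e-07), from 55.8 to 4327 FPKM. Sparc, a collagen-binding matrix protein, rose by 3.67, S100a4 by 4.44 to a level of 5.08 FPKM, and Cd44, the hyaluronan receptor, by 3.50 to 15.6 FPKM. Col1a1 is also a stroma marker, and the stroma marker sum ran from 135 to 193 FPKM in the pNC and from 8823 to 10725 FPKM at E16.5. With library totals, the calls from E14.5 to E16.5 became 4 higher and 3 lower. Without E14.5 replicate 1, 7 were called higher from E10.5 to E14.5, and S100a4 and Cd44 were not among them.

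In a list of other type III, type IV and related intermediate filament genes, which holds no keratins, most genes fell after E10.5. Of 8 tested, 1 was called higher and 6 lower from E10.5 to each cornea stage, and 1 lower from E14.5 to E16.5, with medians of -5.29, -5.71 and -0.09. The neurofilament genes Nefl and Nefm were at 36.6 and 41.3 FPKM at E10.5 and at 0.113 and 0.187 FPKM at E16.5, and the neuronal filaments Ina and Prph went from 10.1 and 6.11 FPKM to 0.067 and 0.04. Nefm fell by 7.62 on the log2 scale from E10.5 to E16.5 (SE 0.21, adjusted p = 6.22e-09 by edgeR). The neuron and glial crest marker sum ran from 118 to 195 FPKM in the pNC and reached at most 9.86 FPKM at E16.5, and its part in their fall was not tested.

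**Figure D5:**
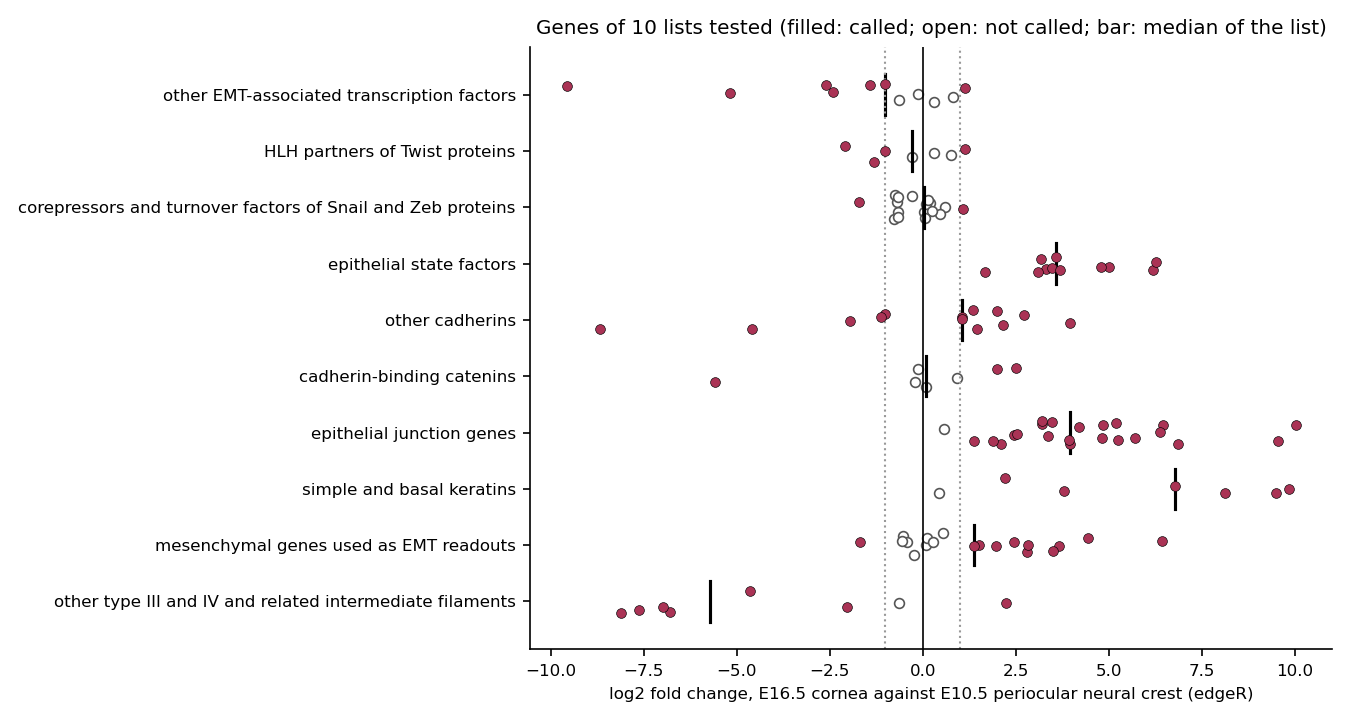
The log2 fold change from E10.5 pNC to E16.5 cornea (x axis, edgeR) of each tested gene in 10 lists (y axis). Filled points were called, open points were not, the black bar is the median of a list, and dotted lines mark a change of 1. Epithelial state factors, junction genes and keratins lie to the right, with medians of 3.60, 3.95 and 6.78. The other type III, type IV and related intermediate filaments, without keratins, lie to the left at -5.71.

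The genes whose course over the 9 samples was most like that of a given gene were taken as the 3 with the highest Pearson r of log2(FPKM + 1) among 10942 genes with a mean of at least 5 FPKM in some stage. For Cdh1 these were Wnt10a, Col17a1 and Bcam (r = 0.999, 0.999 and 0.998), which encode a Wnt ligand, a hemidesmosome collagen and a laminin-binding adhesion protein. Wnt10a was at 0.51, 33.5 and 65.8 FPKM and Col17a1 at 0.78, 84.0 and 194 FPKM at the 3 stages in turn. For Twist2 they were Ston1, Arf4 and Synj2 (r = 0.995 each), and Ston1 was at 6.25, 28.1 and 36.4 FPKM. For Snai1 they were Trim37, Gars and Nln (r = 0.995, 0.994 and 0.994), and for Cdh2 Klc1, Rbm14 and Ctbp1 (r = 0.996, 0.994 and 0.993). The last of these, Ctbp1, encodes a corepressor and went from 121 to 92.1 and 68.6 FPKM. The points share 3 stages, so any gene with a like step between stages reaches a high r, and the choice of leading genes is a description only.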

How the data were processed

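RNA-Seq was performed on 9 mouse samples, 3 per stage, grouped by their labels. The authors quantified genes with RSEM after mapping with Bowtie2 and HISAT to GRCm38 (versions are not given in the sources used here). The deposited expected count is an estimate that is not normalized, and the deposited FPKM scales it to transcript length and mapped fragments. Genes absent from a sample were taken as 0. Entrez Gene identifiers were matched to RefSeq symbols for 19312 of 19369 genes.

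Rounded expected counts were filtered by stage (filterByExpr) and scaled between libraries by TMM. A quasi-likelihood model of stage over all 9 samples was fitted with edgeR 4.0.16 in R 4.3.3, with Benjamini-Hochberg adjustment over 14771 genes. A call needed an adjusted p under 0.05 and a log2 fold change of 1 or more in either direction. The standard error is the log2 fold change over the square root of F. Scripts were tested on simulated data. Totals of 8745161 to 9069023 per sample leave little counting error at the levels of most of the 10 genes, and more for Snai1 in the corneas.

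The 10 genes, the pathway lists and the marker lists were chosen with earlier results of these data known. The text names all 10 genes. From each list it names at most 4 genes, those with the largest absolute change from E10.5 to E16.5 among genes called with a mean of at least 5 FPKM in either stage. It also names 3 genes of like course for each of Snai1, Twist2, Cdh1 and Cdh2, and the markers that were lowest or highest. Any other gene was named after its values were seen.

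Alternatives were library totals, RLE factors, DESeq2 1.42.0, limma 3.58.1 on log2(FPKM + 1) and log2(FPKM + 0.1), no filter, the 6 samples compared, a replicate block, leaving out each sample, no minimum fold, and the NOISeq criterion of the study's methods, recomputed from FPKM at a probability of at least 0.8. Upstream sequences came from RefSeq entries of GRCm38.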

Additional observations from a re-analysis of the deposited data

How the results depend on the processing

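With limma on log2(FPKM + 1), genes called higher and lower were 1302 and 760 from E10.5 to E14.5 (2014 and 1177 in the edgeR test), 1885 higher from E10.5 to E16.5 (2862), and 517 and 511 from E14.5 to E16.5 (924 and 808). Without its filter they were 1293 and 752, 1882, and 506 and 504. The NOISeq criterion gave 941 and 535, 1694, and 381 and 401. Without a minimum fold they were 4273 and 4055, 5197 and 5119, and 2579 and 2585, since fewer conditions were set. For the other settings the cause was not tested. The other 99 counts of genes over all alternatives stayed within 1.5 times.

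Over all alternatives, 570 values of the 10 genes kept their direction and side of the threshold, 15 gained it, 6 lost it and 9 reversed. The reversals were all from E14.5 to E16.5 and of values near 0. Snai2 went to -0.13 with library totals, limma at either pseudocount or without a filter, and NOISeq. With 1 sample left out, Snai2 ran from -0.013 to 0.067, with the lowest value without E14.5 replicate 3. Twist1 ran from -0.159 to 0.020, above 0 without E14.5 replicate 3 or E16.5 replicate 1, and Cdh11 from -0.295 to 0.041, above 0 without E14.5 replicate 2. The cause was not tested. The changes of the log2 Cdh1 to Cdh2 ratio ran from 3.16 to 3.75 from E10.5 to E14.5, 5.36 to 5.81 from E10.5 to E16.5 and 1.83 to 2.42 from E14.5 to E16.5 when 1 sample was left out.

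Neither labels nor methods pair the replicate numbers, and deviations of same-numbered samples had a mean correlation of -0.03 over 9 pairs, beside 0.02 over 18 pairs of other numbers. With a replicate block, 1985 and 1182, 2855 and 2285, and 937 and 785 genes were called.

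The 3 pooled samples per stage limit the precision of each mean. Counts of 52 to 13058 per gene and sample underlie the 10 genes. The lowest were those of Snai1 in the corneas, with 52, 66 and 71 at E16.5, where counting error adds to the spread between samples and was not separated from it.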
